A study of Mus musculus with 9 samples.

Results

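Cathepsins are the proteases of the lysosome, and 10 of their genes (*Ctsa*, *Ctsb*, *Ctsc*, *Ctsd*, *Ctse*, *Ctsh*, *Ctsk*, *Ctsl*, *Ctss* and *Ctsz*) were followed here, chosen by name out of the 34638 genes in the deposited table. All 10 passed the filter on low values, a mean of at least 0.5 FPKM over all mice, which 16831 genes of the table passed. FPKM is the number of fragments counted on a gene, scaled to its length and to the size of the library, so levels on this scale can be compared between genes. RNA was measured by RNA-seq in whole lungs of 9 wild-type C57BL/6 mice, 3 in each of 3 groups, and the study compared allergic airway inflammation driven by IL-33 with and without a block of MyD88. IL-33 is an alarmin released by airway epithelium, and MyD88 is the adaptor through which its receptor signals. PBS mice were challenged with phosphate buffered saline. IL-33 mice received 0.5 µg of recombinant mouse IL-33 into the trachea on days 0, 1, 2 and 3. IL-33+LM8 mice received the same IL-33 and, before it, 10 mg/kg of the MyD88 inhibitor LM8 by intraperitoneal injection. For the PBS and IL-33 groups the methods give female mice of 6 to 8 weeks, a volume of 25 µL and lungs taken on day 4. For the LM8 group none of these is stated, nor is it stated whether the other groups received the solvent of LM8, so an effect of the solvent or the injection and an effect of LM8 cannot be told apart.

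Cathepsins are made as inactive proenzymes, are carried to the lysosome mostly by mannose 6-phosphate receptors, and are activated there by cleavage in acid. They differ in their catalytic residue, which is a cysteine in most, an aspartate in cathepsins D and E, and a serine in cathepsin A. In the lung they are known above all from macrophages and other myeloid cells, where they degrade ingested protein and matrix, and cathepsin S is best known for trimming the invariant chain from MHC class II molecules.

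In IL-33 lungs all 10 cathepsin genes were higher than in PBS lungs, from *Ctss* at 7.87 times and *Ctsk* at 7.51 times down to *Ctsh* at 1.44 times the PBS mean, where 27.4% of all genes tested passed as higher. When LM8 was given with IL-33, 9 of the 10 were lower than with IL-33 alone, and *Ctse* did not pass the test (13.9% of all genes were lower). Compared with PBS lungs, 7 of the 10 were still higher in IL-33+LM8 lungs, as were 16.3% of all genes, whereas *Ctsd*, *Ctsh* and *Ctsl* did not pass the test and their intervals stayed within 0.27 of 0 on the log2 scale.

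The genes lie on 7 chromosomes, with *Ctsk* and *Ctss* next to each other on chromosome 3 in the same orientation. By the table's own coordinates, for which it names no genome build, *Ctsk* (ENSMUSG00000028111) runs from 95406567 to 95416673 and *Ctss* (ENSMUSG00000038642) from 95434097 to 95463714, leaving 17423 bases between them. The table places 1 further gene in that gap. *Ctsa* and *Ctsz* are both on chromosome 2, and *Ctsc* and *Ctsd* both on chromosome 7, in each case far apart. The table's gene models of 6 members overlap other genes. *Ctsa* overlaps *Pltp* on the opposite strand, and since the strand setting of the counting is not stated, reads of the overlap could be split either way. *Pltp*, a phospholipid transfer protein, was at 148 ± 10.2 FPKM in PBS, 106 ± 7.95 in IL-33 and 116 ± 20.7 in IL-33+LM8 lungs (SD, n = 3 each), the opposite order to *Ctsa* for PBS and IL-33. *Ctsb* overlaps *Fdft1* and *Ctsz* overlaps *Nelfcd*, both on the opposite strand and both at under 14 FPKM in every group mean. *Ctsd*, *Ctsl* and *Ctss* overlap gene models or a pseudogene whose group means stayed under 1 FPKM. In the GENCODE M21 transcripts 33.2% of the 31-base stretches of *Ctsd* also occur in other genes, all of them in the overlapping model *Gm49369*, and for *Ctsl* the share was 7.68%. For *Ctsk*, *Ctss* and *Ctsz* no such stretch was shared.

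RefSeq promoter windows (GRCm38.p6, 250 bases before and 50 after the annotated start) were at hand for 7 of the 10 genes, with 8 starts, as *Ctsa* has a pair of them. *Ctsb*, *Ctse* and *Ctsh* had no entry. The windows are shown because these genes moved together, and 3 motifs were searched on both strands, with no overlap between their matches. CACGTG, the palindromic letters bound by TFEB and its relatives, occurred in windows of *Ctsa*, *Ctsd* and *Ctsl*, that is in 3 of the 8, and in 7.15% of all 32851 windows. Of the 250 bases before the start in these windows, 164, 211 and 48 lie in GENCODE M21 exons of the same gene. These matches are therefore in windows that are partly or mostly transcribed. GAGGAAGT, letters of the myeloid factor PU.1, occurred in the windows of *Ctss* and *Ctsc*, and in 3.20% of all windows. The third motif, TTC and GAA with 4 free bases between them as bound by STAT factors, was in none of the 8 and in 6.95% of all windows, which says only that these letters are not in these windows. The matches are shown in 30 bases each, read 5′ to 3′ on the strand of the gene, with the matching letters in capitals (for GAGGAAGT the capitals are its reverse complement, since both matches were on the opposite strand).
Ctsa, chr2:164833758-164833787, plus strand: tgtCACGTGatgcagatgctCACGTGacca
Ctsd, chr7:142388048-142388077, minus strand: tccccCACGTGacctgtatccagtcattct
Ctsd, chr7:142387908-142387937, minus strand: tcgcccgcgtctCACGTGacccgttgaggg
Ctsl, chr13:64370739-64370768, minus strand: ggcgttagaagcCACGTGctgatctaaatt
Ctss, chr3:95526773-95526802, plus strand: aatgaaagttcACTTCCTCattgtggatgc
Ctsc, chr7:88277923-88277952, plus strand: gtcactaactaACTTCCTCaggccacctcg

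The windows of the neighbouring genes with the largest rises, *Ctss* and *Ctsk*, are given over the 250 bases before their starts. Neither held CACGTG, and in *Ctss* the GAGGAAGT match began 2 bases before the start and so ran past the end of the stretch below. The RefSeq start of *Ctsk* lies upstream of the GENCODE M21 start.
Ctss, chr3:95526536-95526785, plus strand: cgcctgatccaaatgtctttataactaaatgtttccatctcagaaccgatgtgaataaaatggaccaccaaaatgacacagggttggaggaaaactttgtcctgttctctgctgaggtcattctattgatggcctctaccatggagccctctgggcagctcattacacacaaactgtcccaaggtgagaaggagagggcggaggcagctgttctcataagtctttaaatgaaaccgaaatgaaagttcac
Ctsk, chr3:95498960-95499209, plus strand: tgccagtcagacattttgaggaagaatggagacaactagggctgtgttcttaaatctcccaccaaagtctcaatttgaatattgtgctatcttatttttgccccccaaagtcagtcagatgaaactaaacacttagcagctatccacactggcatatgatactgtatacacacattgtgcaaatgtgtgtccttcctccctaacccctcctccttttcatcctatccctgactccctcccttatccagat
Both stretches were AT-rich, with 44.8% G and C in *Ctss* and 43.2% in *Ctsk*, against a median of 52.4% over all windows. The same stretch had 47.2% in *Ctsl*, a gene with a small rise. It had 67.2% in *Ctsd*, the highest of the members' stretches, where 211 of the 250 bases are exonic.

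Total counts per mouse were 53877663 to 90607218 reads, and every member other than *Ctse* had at least 842 reads in each mouse. *Ctse* had between 67 and 120 reads in PBS mice, so its values carry a larger counting error. Such counting error does not include the spread between mice, which the SDs and tests below do. The lung markers were in place, with *Sftpc* of alveolar type 2 cells at 11030 ± 530 FPKM and *Scgb1a1* of airway secretory cells at 21499 ± 1123 FPKM in PBS lungs (SD, n = 3). The quasi-likelihood test of edgeR was run on the counts of all genes that passed the filter, and a gene passed at a Benjamini-Hochberg adjusted p under 0.05. An exact two-sided permutation test on 1 gene could not go below p = 0.1 with 3 mice in each group.

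In PBS lungs the most abundant member was *Ctsd*, at 237 ± 14.8 FPKM (SD, n = 3), followed by *Ctss* at 90.9 ± 10.4. *Ctsz* (69.2 ± 6.27), *Ctsb* (62.5 ± 1.38) and *Ctsh* (60.2 ± 2.01) came next, and neighbours in that order did not differ beyond their spread. *Ctsc* (38.7 ± 1.67), *Ctsa* (30.1 ± 1.58) and *Ctsl* (25.9 ± 1.20) formed the lower middle, and *Ctsk* was at 9.99 ± 1.43. *Ctse*, at 0.438 ± 0.10, was below the filter value of 0.5 FPKM in PBS lungs. In IL-33 lungs *Ctss* moved to the top at 716 ± 6.22 FPKM and became the gene ranked 38 in the whole table, from rank 341 in PBS lungs. *Ctsk* moved from the ninth to the sixth place at 75.1 ± 2.44 FPKM, where it and *Ctsc* at 73.1 ± 3.46 did not differ beyond their spread. In IL-33+LM8 lungs *Ctsd* was first again at 252 ± 5.83 FPKM, with *Ctss* at 229 ± 15.8 behind it. There *Ctsk* (26.2 ± 7.98) and *Ctsl* (24.4 ± 1.34) did not differ beyond their spread.

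**Figure D1:**
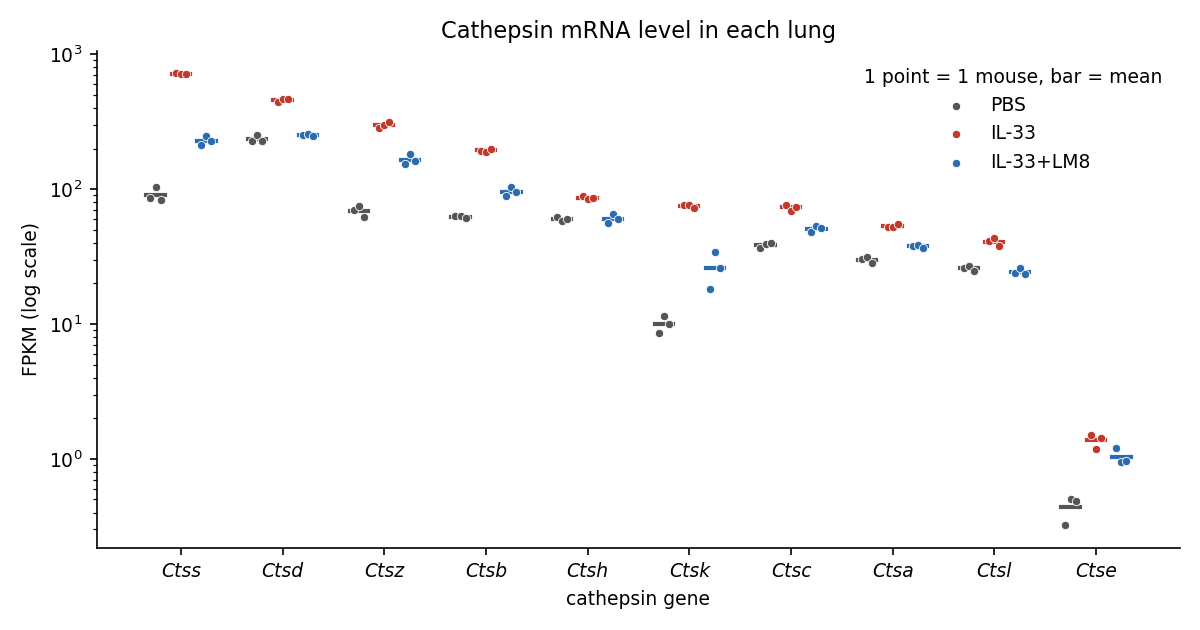
FPKM on a log axis for the 10 cathepsin genes, ordered by their level in IL-33 lungs, with 1 point per mouse and a bar at the group mean (3 mice per group). For each of the 10 genes the 3 IL-33 mice lie above the 3 PBS mice, and the IL-33+LM8 mice lie between the groups except for *Ctsd*, *Ctsh* and *Ctsl*, where they lie near the PBS mice, and *Ctse*, where they overlap the IL-33 mice.

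The sum of the 10 members ran from 598 to 663 FPKM over the PBS mice, from 1979 to 2012 over the IL-33 mice and from 895 to 1005 over the IL-33+LM8 mice, with no overlap between groups. *Ctss* made up 14.5% ± 0.855 of this sum in PBS lungs, 35.9% ± 0.607 in IL-33 lungs and 24.3% ± 0.295 in IL-33+LM8 lungs (SD, n = 3). The share of *Ctsd* moved the other way, from 37.9% ± 0.496 to 22.9% ± 0.379 and 26.8% ± 1.40. The ratio of *Ctss* to *Ctsd* within a mouse was therefore 0.367 to 0.404 in PBS lungs, 1.53 to 1.62 in IL-33 lungs and 0.846 to 0.956 in IL-33+LM8 lungs, on the FPKM scale.

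**Figure D2:**
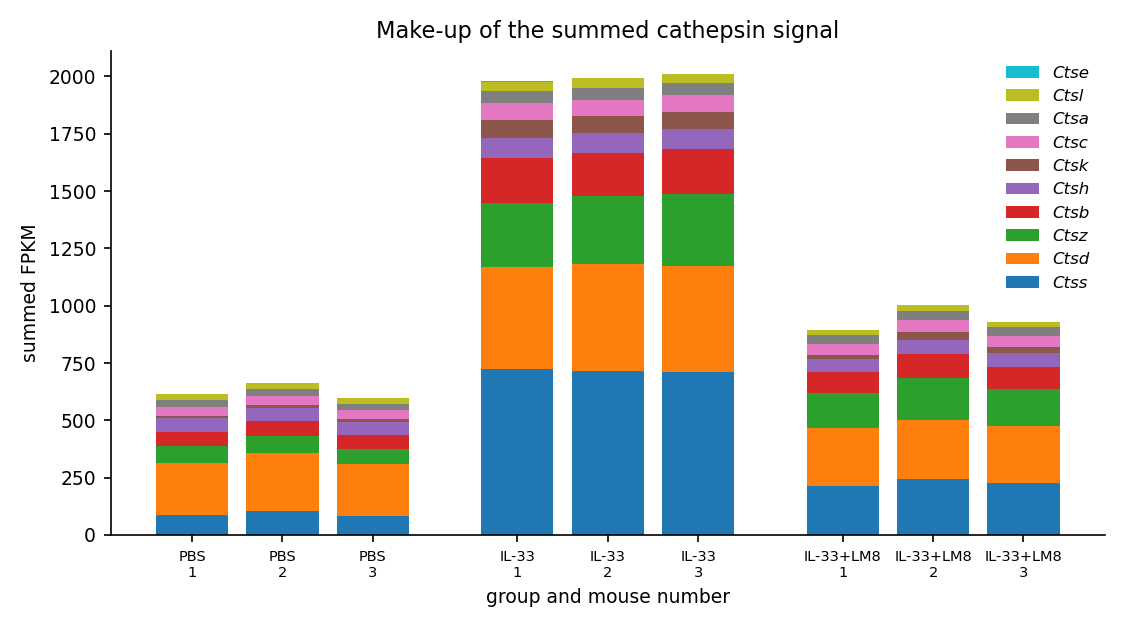
Summed FPKM of the 10 cathepsin genes in each mouse, stacked by gene from *Ctss* at the bottom to *Ctse* at the top. The bars of IL-33 mice reach 1979 to 2012 FPKM against 598 to 663 in PBS mice, and the *Ctss* segment takes the largest share of them.

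Among the cysteine endopeptidases, *Ctss* encodes cathepsin S, which stays active at neutral pH. Its level was 86.3, 103 and 83.7 FPKM in the 3 PBS mice, 722, 717 and 710 in the IL-33 mice and 214, 246 and 228 in the IL-33+LM8 mice. No groups overlapped, and the IL-33 mice differed from each other by less than the mice of either other group. The log2 fold change was 2.98 ± 0.09 in IL-33 against PBS (SE, edgeR adjusted p = 1.1e-06), which ranked it 292 from the top of the 16831 genes tested. It was -1.64 ± 0.07 in IL-33+LM8 against IL-33 (SE, edgeR adjusted p = 3.3e-05), rank 263 from the bottom. Against PBS the LM8 mice were still higher by 1.35 ± 0.10 on the log2 scale (SE, edgeR adjusted p = 0.00015).

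*Ctsk* encodes cathepsin K, the collagenase of osteoclasts, which macrophages can also make. It was measured at 8.54, 11.4 and 10.0 FPKM in PBS mice, at 76.9, 76.1 and 72.3 in IL-33 mice and at 18.2, 34.1 and 26.2 in IL-33+LM8 mice. The groups did not overlap, but the LM8 mice spread more widely than for any other member (a coefficient of variation of 30.5%), with mouse 1 lowest and mouse 2 highest. Its log2 fold change was 2.91 ± 0.10 in IL-33 against PBS (SE, edgeR adjusted p = 1.7e-06) and, for LM8 added to IL-33, -1.52 ± 0.21 (SE, edgeR adjusted p = 0.00177). Leaving out single mice moved the latter between -1.76 and -1.31 and kept it past the threshold.

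*Ctsb* encodes cathepsin B, which cuts within proteins and also removes dipeptides from their ends. The PBS mice had 63.4, 63.2 and 60.9 FPKM, the IL-33 mice 193, 188 and 200, and the IL-33+LM8 mice 89.2, 103 and 94.7. All groups were separate, with the LM8 mice nearer to PBS than to IL-33. The log2 fold changes were 1.63 ± 0.06 for IL-33 against PBS, -1.02 ± 0.07 for IL-33+LM8 against IL-33 and 0.63 ± 0.08 for IL-33+LM8 against PBS (SE, edgeR adjusted p = 1.5e-06, 0.00018 and 0.00127).

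*Ctsl* encodes cathepsin L, a close relative of cathepsin S that processes many lysosomal substrates. Its FPKM values were 26.1, 27.1 and 24.7 in PBS, 40.9, 43.7 and 38.0 in IL-33 and 24.0, 25.9 and 23.4 in IL-33+LM8 mice. The IL-33 mice stood above both other groups, and the PBS and LM8 mice overlapped. The rise with IL-33 was 0.65 ± 0.07 and the fall with LM8 -0.74 ± 0.07 on the log2 scale (SE, edgeR adjusted p = 0.00016 and 0.00042). Against PBS, the LM8 mice gave -0.07, with a 95% interval from -0.23 to 0.09 (edgeR adjusted p = 0.465).

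The exopeptidases of the cysteine class trim proteins from their ends. *Ctsz*, which encodes the carboxypeptidase cathepsin Z (also called X), was at 70.1, 75.0 and 62.5 FPKM in PBS, 282, 298 and 313 in IL-33 and 153, 181 and 163 in IL-33+LM8 mice. Its 3 groups were separate, and the LM8 mice stayed well above PBS. The log2 fold changes were 2.10 ± 0.08, -0.84 ± 0.08 and 1.28 ± 0.10 in IL-33 against PBS, IL-33+LM8 against IL-33 and IL-33+LM8 against PBS (SE, edgeR adjusted p = 2.6e-06, 0.00047 and 0.00019).

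*Ctsc* encodes cathepsin C, the dipeptidyl peptidase that activates granule serine proteases. It ranged from 36.9 to 40.2 FPKM in PBS, from 69.2 to 75.9 in IL-33 and from 47.8 to 53.3 in IL-33+LM8 mice. The groups were separate in that order, with log2 fold changes of 0.91 ± 0.05, -0.52 ± 0.07 and 0.41 ± 0.07 in the same 3 comparisons (SE, edgeR adjusted p = 1.3e-05, 0.00133 and 0.00423). *Ctsh*, whose product cathepsin H is an aminopeptidase that also processes surfactant protein in alveolar type 2 cells, had the smallest rise. Its range was 58.5 to 62.4 FPKM in PBS, 85.1 to 88.7 in IL-33 and 56.3 to 64.9 in IL-33+LM8 mice, so that the LM8 mice spanned the whole PBS range. It rose by 0.52 ± 0.05 with IL-33 and changed by -0.52 ± 0.07 with LM8 on the log2 scale (SE, edgeR adjusted p = 0.00012 and 0.00153). Between LM8 and PBS the difference was 0.02, with a 95% interval from -0.16 to 0.20 (edgeR adjusted p = 0.872).

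Of the aspartic proteases, *Ctsd* encodes cathepsin D, a major endopeptidase of most lysosomes. It was at 229, 254 and 228 FPKM in PBS, 446, 464 and 463 in IL-33 and 254, 257 and 246 in IL-33+LM8 mice. The IL-33 mice were apart from all others, and the LM8 mice overlapped the upper part of the PBS range. Its log2 fold change was 0.95 ± 0.06 with IL-33 (SE, edgeR adjusted p = 2.1e-05) and -0.86 ± 0.06 with LM8 added (SE, edgeR adjusted p = 0.00014). Between LM8 and PBS it was 0.10, with a 95% interval from -0.06 to 0.27 (edgeR adjusted p = 0.308). *Ctse*, which encodes cathepsin E, an endosomal relative of cathepsin D, was rare in comparison. Its levels were 0.322, 0.503 and 0.488 FPKM in PBS, 1.5, 1.19 and 1.44 in IL-33 and 1.20, 0.945 and 0.969 in IL-33+LM8 mice. The IL-33 and LM8 mice overlapped at 1.19 and 1.20 FPKM, and both lay above PBS. The log2 fold change was 1.64 ± 0.23 for IL-33 against PBS and 1.26 ± 0.24 for IL-33+LM8 against PBS (SE, edgeR adjusted p = 0.00084 and 0.00868). For IL-33+LM8 against IL-33 it was -0.40 ± 0.19, with a 95% interval from -0.84 to 0.03 (edgeR adjusted p = 0.157), an interval that includes a fall of 0.84. *Ctse* passed the filter only through the IL-33 and LM8 mice, the groups in which it was called higher than in PBS. Those calls therefore carry less weight, although both also passed with no filter on low values (1.65 and 1.27, edgeR adjusted p = 0.0024 and 0.0167).

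*Ctsa* encodes cathepsin A, a serine carboxypeptidase that also holds β-galactosidase and neuraminidase together in the lysosome. It ranged from 28.3 to 31.4 FPKM in PBS, from 52.3 to 54.8 in IL-33 and from 36.6 to 38.5 in IL-33+LM8 mice. These ranges were separate, and the log2 fold changes were 0.82 ± 0.06, -0.50 ± 0.05 and 0.34 ± 0.06 in the 3 comparisons (SE, edgeR adjusted p = 2.5e-05, 0.00056 and 0.00749). *Glb1* and *Neu1*, which encode those partner enzymes, also passed in IL-33 against PBS, at 1.02 ± 0.08 and 0.52 ± 0.08 on the log2 scale (SE, edgeR adjusted p = 4.9e-05 and 0.00107).

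Over the 10 members, the median log2 fold change in IL-33 against PBS was 1.29, with -0.005 over all genes tested. All 10 passed as higher, while 27.4% of the 16831 genes passed as higher and 27.2% as lower. Of the members, 5 (*Ctss*, *Ctsk*, *Ctsz*, *Ctse* and *Ctsb*) were also at least 2 times higher, against 10.8% of all genes. *Ctse* entered the counts against PBS only through its level in mice given IL-33. In all 10 each IL-33 mouse was above each PBS mouse on the FPKM scale, which held for 31.7% of the genes. For IL-33+LM8 against IL-33 the median was -0.79, with -0.006 over all genes. Here 9 passed as lower and none as higher, with 13.9% of genes lower and 12.6% higher, and *Ctss*, *Ctsk* and *Ctsb* were also past the 2-fold minimum, against 3.93% of genes. *Ctsb*, at -1.02, fell short of that minimum without IL-33 mouse 3 (-0.98) or LM8 mouse 1 (-0.97), which left 2 genes. The same 9 had every LM8 mouse below every IL-33 mouse, as had 22.0% of all genes.

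For IL-33+LM8 against PBS the median of the 10 was 0.52, with 0.003 over the 16829 genes tested. Of the 10, 7 passed as higher and none as lower, against 16.3% and 13.4% of all genes. *Ctsk*, *Ctss*, *Ctsz* and *Ctse* were at least 2 times higher, which 5.87% of genes were, and the LM8 mice of 7 members lay above all PBS mice, as did those of 23.4% of genes. The comparisons share mice, so their values are given side by side only.

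**Figure D3:**
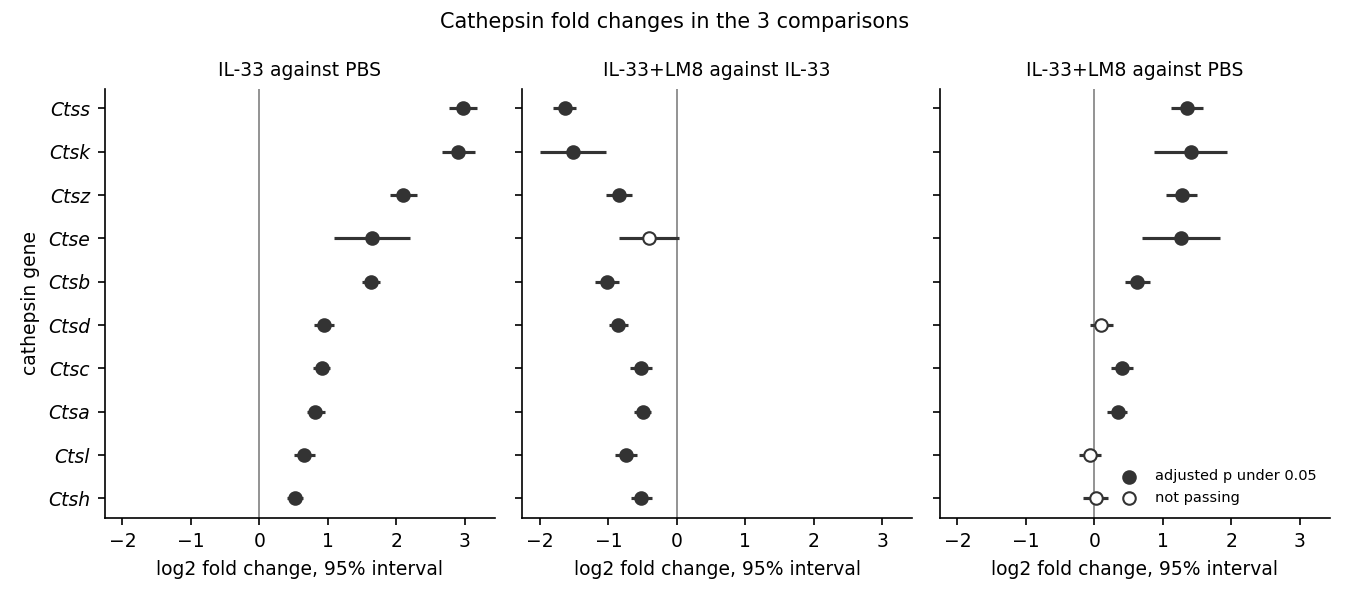
Log2 fold change (point) and its 95% interval (line) for the 10 cathepsin genes in each comparison, 3 mice against 3; filled points passed at an edgeR adjusted p under 0.05. All 10 points are filled and to the right of 0 in IL-33 against PBS, 9 are filled and to the left in IL-33+LM8 against IL-33, and 7 are filled and to the right in IL-33+LM8 against PBS.

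The members differed in where the LM8 mice lay between the other groups. On a scale where the PBS mean is 0% and the IL-33 mean 100%, the LM8 mice lay at -17.1% to -0.018% for *Ctsl*, at -15.1% to 17.8% for *Ctsh* and at 3.95% to 9.13% for *Ctsd*. For *Ctss* they lay at 19.8% to 24.8%, for *Ctsb* at 20.4% to 30.7% and for *Ctsk* at 12.6% to 37.1%. *Ctsa* (28.4% to 36.6%), *Ctsc* (26.4% to 42.2%) and *Ctsz* (36.6% to 49.1%) lay higher, and *Ctse* was highest at 54.2% to 81.4%. These positions are a description of levels on the FPKM scale, and the differences between members were not tested.

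Whole lung was measured, so fewer cells of a type and less RNA per cell cannot be told apart, and the summed markers of several myeloid cells moved with the cathepsins. The 6 interstitial macrophage markers summed to 63.3 to 74.3 FPKM in PBS, 427 to 463 in IL-33 and 182 to 193 in IL-33+LM8 mice. Of these 6, 5 passed as higher and 1 as lower in IL-33 against PBS, and 4 as lower in IL-33+LM8 against IL-33. Over all genes 27.4% were higher and 27.2% lower in the first of these comparisons, and 12.6% higher and 13.9% lower in the second. These shares apply to the other marker counts below as well. The most abundant interstitial macrophage marker *C1qb*, a complement subunit made by macrophages, was at 23.3 ± 2.08, 186 ± 8.18 and 74.9 ± 4.96 FPKM (SD, n = 3). The sums of the 5 monocyte markers (60.3 to 84.6, 232 to 237 and 117 to 128 FPKM) and the 6 dendritic cell markers (35.5 to 36.9, 90.8 to 97.0 and 51.5 to 54.5) followed the same order of groups. *Fn1* led the first sum (192 ± 0.166 FPKM in IL-33 lungs) and *Itgax* the second (70.1 ± 1.6), and the single markers were split. Of the monocyte markers 4 were higher and 1 lower with IL-33, and 2 higher and 2 lower with LM8 added. Of the dendritic cell markers 3 were higher and 2 lower with IL-33, and 1 higher and 2 lower with LM8 added. The sums of the 6 eosinophil markers (3.82 to 4.45, 40.3 to 45.7 and 8.42 to 9.09 FPKM) and the 5 B cell markers (33.0 to 41.9, 117 to 153 and 76.4 to 88.7) also followed that order of groups. In none of the lists was a marker at 3 reads or fewer in every mouse. The part of these cells in the cathepsin levels was not tested.

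The 5 measured alveolar macrophage markers summed to 97.3 to 103 FPKM in PBS, 74.4 to 80.0 in IL-33 and 81.4 to 91.2 in IL-33+LM8 mice, a sum led by *Car4*, which lung endothelium also expresses. Without *Car4*, a choice made after seeing the data, the ranges were 15.1 to 24.7, 20.7 to 24.3 and 16 to 20.1 FPKM and overlapped. Of the 5 alveolar macrophage markers 2 were higher and 3 lower with IL-33, and 3 higher and 2 lower with LM8 added. The 7 neutrophil markers were highest with LM8, at 864 to 1004 FPKM, against 175 to 197 in IL-33 and 23.3 to 30.6 in PBS mice. Alveolar type 2 markers, led by *Sftpc*, summed to 13265 to 14349 FPKM in PBS, 7115 to 7336 in IL-33 and 11684 to 12857 in IL-33+LM8 mice. *Sftpc* alone was at 11030 ± 530, 4993 ± 98 and 9203 ± 477 FPKM (SD, n = 3). Of these 6 alveolar type 2 markers 3 were lower and 3 did not pass with IL-33 (median log2 fold change -0.36). With LM8 added 4 were higher and 2 did not pass. The airway secretory sum (20417 to 22468, 8296 to 9330 and 16598 to 18086) was led by *Scgb1a1*, at 21499 ± 1123, 8806 ± 525 and 17147 ± 750 FPKM. Of these 6 airway secretory markers 4 were higher and 2 lower in IL-33 against PBS (median log2 fold change 1.66), beside 27.4% and 27.2% of all genes. Endothelial markers summed to 621 to 701, 379 to 415 and 586 to 605 FPKM. Fibroblast markers summed to 135 to 159, 260 to 308 and 125 to 133 FPKM, and *Col1a1*, a collagen gene, led that sum. Of the 5 fibroblast markers 2 were higher and 3 lower in IL-33 against PBS, beside the same shares of all genes. The sums of T cell markers (9.20 to 10.3, 12.8 to 14.2 and 9.62 to 13.9 FPKM) and mast cell and basophil markers (32.0 to 33.4, 42.6 to 50.9 and 40.8 to 42.8 FPKM) were highest in the mean of the IL-33 mice, but their LM8 mice overlapped the IL-33 mice. Of the 3 mast cell and basophil markers tested, 2 were higher and 1 lower with IL-33, and 1 higher and 1 lower with LM8 added. The most abundant of them, *Kit*, was lowest in IL-33 lungs, at 22.7 ± 1.09, 15.0 ± 0.809 and 22.2 ± 0.51 FPKM (SD, n = 3). Ciliated cell markers were at 67.9 to 86.0, 58.5 to 63.8 and 67.8 to 74.5 FPKM.

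**Figure D4:**
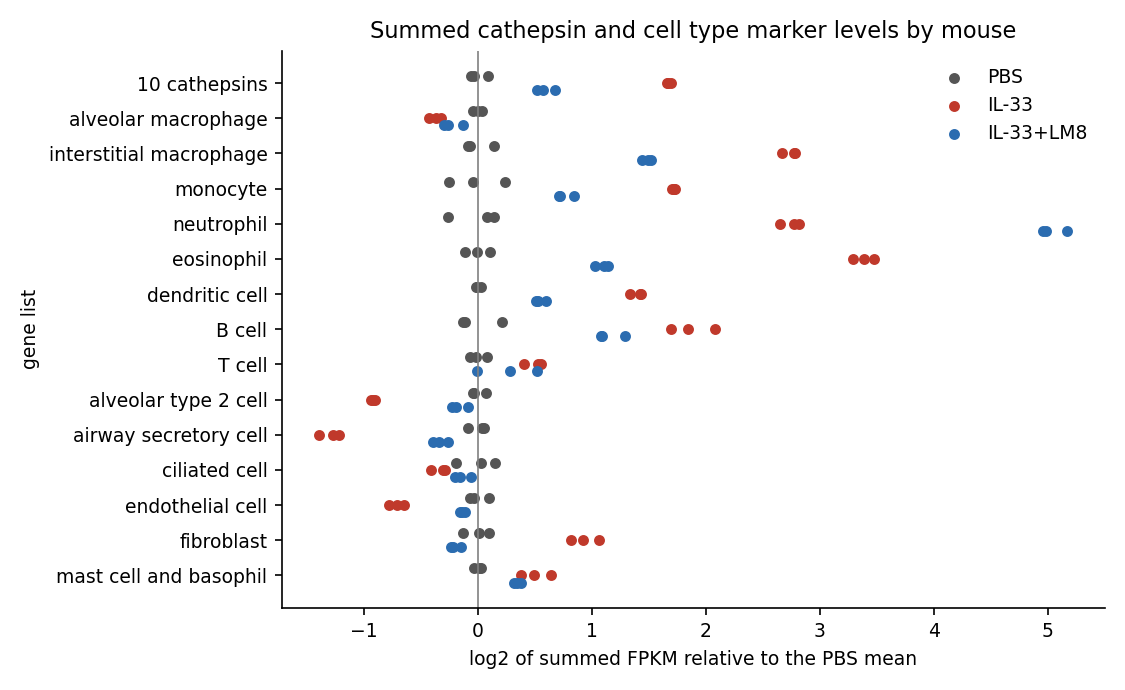
Log2 of the summed FPKM of the 10 cathepsins and of each cell type marker list in each mouse, relative to the PBS mean of the same list; 1 point is 1 mouse. The marker sums of interstitial macrophages, monocytes, eosinophils, dendritic cells and B cells share the order of groups of the cathepsin sum with no overlap between groups, whereas the neutrophil sum is highest in the IL-33+LM8 mice.

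Of the remaining cathepsin genes, *Ctso*, *Ctsf* and *Ctsw* passed the filter. *Ctso*, a widely expressed cysteine cathepsin, was at 14.2 ± 1.12, 13.8 ± 0.314 and 13.6 ± 0.633 FPKM in PBS, IL-33 and IL-33+LM8 lungs (SD, n = 3), and the 95% interval of its log2 change with IL-33 ran from -0.19 to 0.10 (edgeR adjusted p = 0.589). *Ctsw*, a cathepsin of cytotoxic lymphocytes, rose with IL-33 by 1.14 ± 0.11 on the log2 scale, from 3.10 ± 0.178 to 6.86 ± 0.454 FPKM (edgeR adjusted p = 0.00012). With LM8 it was at 4.07 ± 1.09 FPKM, a difference of -0.75 on the log2 scale (edgeR adjusted p = 0.0254) that no longer passed when any IL-33 mouse or LM8 mouse 3 was left out (-0.80 to -0.70). *Ctsf*, named after its values were seen because it went against the 10 members, fell with IL-33 by 1.11 ± 0.20 on the log2 scale, from 5.29 ± 0.895 to 2.45 ± 0.641 FPKM (edgeR adjusted p = 0.00296). *Ctsg*, the neutrophil serine protease cathepsin G, had 0 reads in all PBS and IL-33 mice and 7 to 16 reads in the LM8 mice.

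The cystatins and stefins are the natural inhibitors of cysteine cathepsins. Of their 5 tested genes 4 were higher and 1 lower in IL-33 against PBS, with a median log2 fold change of 1.72, and none higher and 2 lower in IL-33+LM8 against IL-33 (median -0.03). Over all genes 27.4% were higher and 27.2% lower in the first of these comparisons, and 12.6% higher and 13.9% lower in the second. *Stfa2l1*, 1 of the 4 higher inhibitors, passed the filter only through the LM8 mice and had no reads in IL-33 mouse 3. *Cst3*, the secreted cystatin C and the most abundant of them, was at 323 ± 27.3 FPKM in PBS, 382 ± 15.2 in IL-33 and 374 ± 22.3 in IL-33+LM8 lungs (SD, n = 3). Its log2 difference in IL-33 against PBS was 0.24 (edgeR adjusted p = 0.0277), a call lost without PBS mouse 1, PBS mouse 3, IL-33 mouse 2 or IL-33 mouse 3 (0.18 to 0.25). In IL-33+LM8 against PBS it was 0.23 with an edgeR adjusted p of 0.0817, and 0.0261 with the replicate number as a block. The ratio of *Ctss* to *Cst3* within a mouse was 0.273 to 0.291 in PBS, 1.81 to 1.97 in IL-33 and 0.539 to 0.661 in IL-33+LM8 lungs. *Cstb*, the cytosolic stefin B, rose with IL-33 from 28.0 ± 2.86 to 92.7 ± 7.41 FPKM and fell to a range of 44.6 to 60.4 with LM8, at 1.72 ± 0.10 and -0.89 ± 0.14 on the log2 scale (SE, edgeR adjusted p = 1.2e-05 and 0.00307). *Stfa2l1*, a stefin of the mouse cluster expressed in myeloid cells, had 0 reads in all PBS mice, 0 to 37 in IL-33 mice and 131 to 160 in LM8 mice, at least 46.8 times higher in LM8 than in PBS mice when 3 reads per library are taken as the floor. Placing it at such a floor left the list's median in IL-33 against PBS at 1.72.

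Of 10 genes for delivery and maturation of cathepsins 7 were higher, 2 lower and 1 did not pass in IL-33 against PBS (median 0.51), and 6 were lower and 1 higher in IL-33+LM8 against IL-33 (median -0.39). Over all genes the shares were 27.4% higher and 27.2% lower in the first of these comparisons and 12.6% higher and 13.9% lower in the second, and they apply to the lists that follow as well. *Lgmn* encodes legumain, the asparaginyl endopeptidase that processes several cysteine cathepsins, and it was at 48.7 ± 3.05, 178 ± 8.41 and 88.8 ± 16 FPKM in PBS, IL-33 and IL-33+LM8 lungs. It rose by 1.87 ± 0.07 on the log2 scale in IL-33 against PBS (SE, edgeR adjusted p = 2.1e-06), and its change with LM8 added had a 95% interval from -1.30 to -0.70 (edgeR adjusted p = 0.00139). *Psap*, the precursor of the saposins, went from 291 ± 19.1 to 1169 ± 21.6 and 508 ± 18.4 FPKM, with 2.00 ± 0.07 and -1.20 ± 0.07 on the log2 scale (SE, edgeR adjusted p = 2.0e-06 and 7.0e-05).

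Of 14 other lysosomal hydrolases 10 were higher and 2 lower with IL-33 (median 0.66), and with LM8 added 9 were lower and none higher (median -0.46). *Napsa*, an aspartic protease of alveolar type 2 cells and the most abundant of them, was at 98.3 ± 2.28, 97.3 ± 0.185 and 91.3 ± 4.78 FPKM, with a 95% interval of its log2 change with IL-33 from -0.12 to 0.09 (edgeR adjusted p = 0.794). *Hexa*, a subunit of β-hexosaminidase, was at 43.3 ± 2.10, 97.9 ± 1.62 and 52.5 ± 1.72 FPKM and passed in both comparisons, at 1.17 ± 0.05 and -0.90 ± 0.05 (SE, edgeR adjusted p = 2.8e-06 and 6.5e-05). *Man2b1*, the lysosomal α-mannosidase, had the largest change of the list with IL-33, 1.40 ± 0.09, and went from 13.1 ± 1.54 to 34.5 ± 0.919 and 16.8 ± 2.09 FPKM.

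Of 14 genes of the lysosomal membrane and its proton pump 9 were higher and none lower with IL-33 (median 0.33), and 6 were lower with LM8 added (median -0.22), where 27.4% of all genes were higher with IL-33 and 13.9% lower with LM8 added. *Lamp1*, an abundant membrane glycoprotein of lysosomes, was at 287 ± 14.6, 297 ± 12.5 and 281 ± 6.74 FPKM, and its log2 change with IL-33 had a 95% interval from -0.09 to 0.18 (edgeR adjusted p = 0.539). The ratio of *Ctsd* to *Lamp1* within a mouse was 0.784 to 0.849 in PBS, 1.43 to 1.61 in IL-33 and 0.859 to 0.927 in IL-33+LM8 lungs. *Npc2*, a cholesterol carrier, was at 124 ± 7.31, 204 ± 6.72 and 178 ± 19.8 FPKM and rose by 0.72 ± 0.06 with IL-33. Its difference with LM8 added, -0.20, did not pass (edgeR adjusted p = 0.167), but did without LM8 mouse 2, at -0.29. *Cd68*, the macrophage member of the LAMP family, rose most, from 19.9 ± 2.84 to 107 ± 8.51 FPKM, and was at 42.0 ± 3.15 with LM8 (2.42 ± 0.12 and -1.35 ± 0.09 on the log2 scale).

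The 4 transcription factors of the TFEB family, which bind CACGTG in lysosomal promoters, were all higher with IL-33 (median 0.84), and 2 were lower with LM8 added (median -0.50). *Tfec*, the member known from macrophages, went from 1.00 ± 0.195 to 5.38 ± 0.298 and 2.38 ± 0.637 FPKM, at 2.42 ± 0.15 and -1.18 ± 0.18 on the log2 scale (SE, edgeR adjusted p = 1.4e-05 and 0.00332). *Tfe3* (5.07 ± 0.251, 6.97 ± 0.150 and 6.29 ± 0.209 FPKM) rose by 0.46 ± 0.06. *Tfeb* (4.42 ± 0.363, 5.42 ± 0.472 and 4.96 ± 0.0799 FPKM) differed by 0.29 with IL-33 (edgeR adjusted p = 0.0312), a call lost without PBS mouse 1 or 2 or IL-33 mouse 1 or 2 (0.24 to 0.31).

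The 7 partners of cathepsin S in MHC class II presentation all rose with IL-33 (median 1.52) and all fell with LM8 added (median -0.86). In IL-33+LM8 lungs all 7 remained higher than in PBS lungs (median 0.61), as were 16.3% of all genes. *Cd74*, the invariant chain, was at 527 ± 28.2, 1444 ± 42.5 and 798 ± 52.4 FPKM, with 1.45 ± 0.07 and -0.86 ± 0.07 on the log2 scale (SE, edgeR adjusted p = 5.1e-06 and 0.00029). *H2-Ab1*, a class II β chain, was at 130 ± 14.1, 455 ± 21.8 and 239 ± 22.8 FPKM, with 1.81 ± 0.09 and -0.93 ± 0.08. Of 8 listed granule proteases activated by cathepsin C, 4 passed the filter, of which 3 were lower and none higher with IL-33 (median -0.98), beside 27.2% and 27.4% of all genes. *Gzma*, a granzyme of cytotoxic lymphocytes, was at 26.4 ± 6.12 FPKM in PBS, 11.1 ± 0.886 in IL-33 and 17.3 ± 3.75 in IL-33+LM8 lungs, and fell with IL-33 by 1.26 ± 0.17 on the log2 scale (edgeR adjusted p = 0.0006). *Gzmb*, another granzyme, was at 6.16 ± 0.639, 3.14 ± 0.436 and 5.19 ± 1.22 FPKM and fell by 0.97 ± 0.15 (edgeR adjusted p = 0.00141). Of the 4 tested, 2 were higher with LM8 added, *Gzma* and *Gzmb*, but the call of *Gzma* was lost without IL-33 mouse 1 or 3 or LM8 mouse 1 or 3 (0.49 to 0.65), and that of *Gzmb* without any IL-33 mouse or LM8 mouse 1 or 3 (0.55 to 0.84). *Prtn3*, the neutrophil proteinase, was named after its values were seen, as the tested client that was not lower with IL-33. Its group means were 0.319, 0.61 and 0.987 FPKM, and its log2 difference was 0.89 in IL-33 against PBS, which did not pass, and 1.59 in IL-33+LM8 against PBS, which did (edgeR adjusted p = 0.141 and 0.0147). *Prtn3* passed the filter only through the LM8 mice, the group in which it was then called higher, so that call carries little weight.

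**Figure D5:**
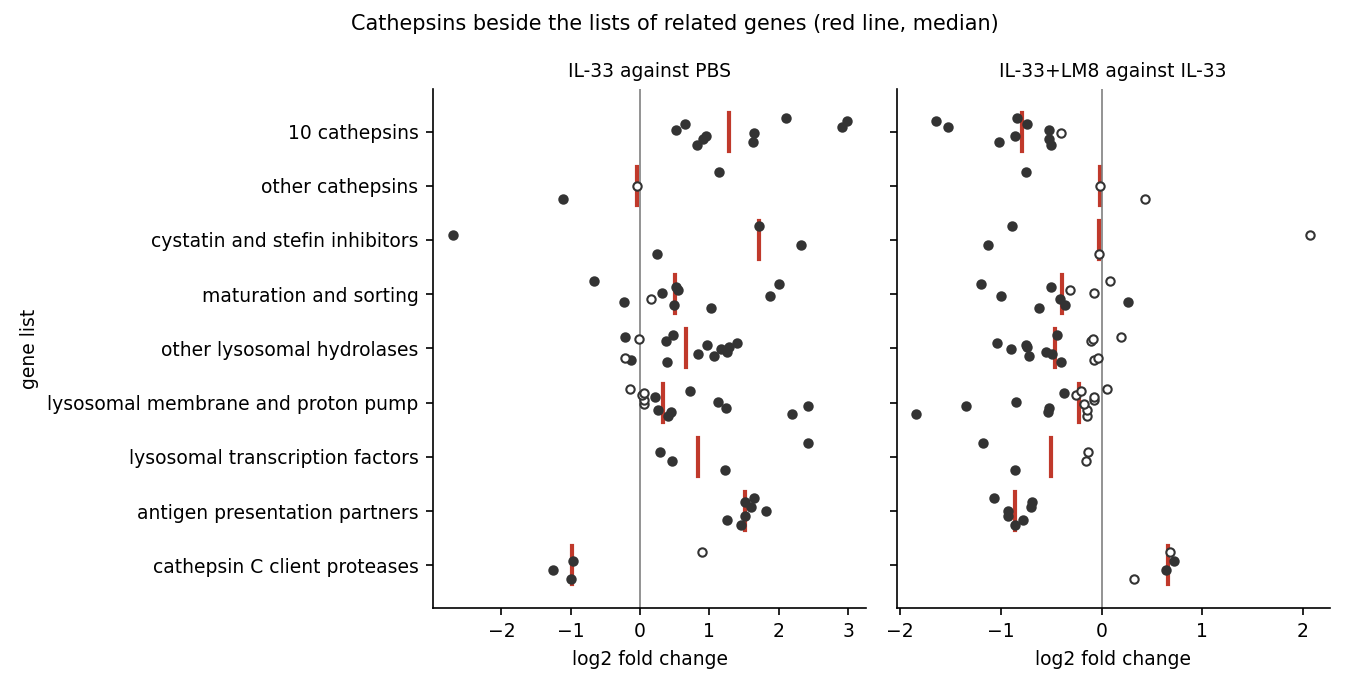
Log2 fold change of each tested gene of the 10 cathepsins and of the lists of related genes in IL-33 against PBS (left) and IL-33+LM8 against IL-33 (right); filled points passed at an edgeR adjusted p under 0.05, the red line is the list's median, and *Stfa2l1* is counted in its median but not drawn. The class II partners lie wholly to the right in the first comparison and wholly to the left in the other, as do the cathepsins. Of the 4 cathepsin C clients, 3 lie to the left in the first comparison, and all 4 lie to the right in the other.

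The genes whose profile over the 9 mice was nearest to each cathepsin were found by the root mean square difference of log2(FPKM + 1), each centred on its own mean. The mice of a group share their treatment. With the pseudocount of 1, a gene of low level can be near a cathepsin although its fold change is another. Nearest to *Ctss* were *Acp5* (0.102), *Ocstamp* (0.129) and *Ccl6* (0.130), and nearest to *Ctsk* were *Ccl6* (0.107), *Sprr2a1* (0.117) and *Sprr2a2* (0.125). *Acp5* was at 7.53, 58.5 and 19.6 FPKM and *Ccl6* at 58.4, 397 and 144 FPKM in the PBS, IL-33 and IL-33+LM8 means. *Ctsz* was nearest to *Tbxas1* (0.063), *Cd83* (0.079) and *Mrc1* (0.081), of which *Mrc1*, the macrophage mannose receptor, was at 8.44, 38.5 and 21.2 FPKM. *Ctsb* was nearest to *Tnip3* (0.074), *Brca1* (0.076) and *E230016K23Rik* (0.081), and *Ctsd* to *Adam12* (0.046), *Stra6l* (0.078) and *Ptpre* (0.080). *Brca1* had group means of 0.397, 3.46 and 1.27 FPKM and *Tnip3* 0.202, 2.66 and 0.939, where *Ctsb* was 3.10 times higher in IL-33 than in PBS lungs. For *Ctsc* the list was *Hif1a* (0.044), *Septin9* (0.047) and *Cenpk* (0.053), and for *Ctsa* it was *Cdk2* (0.050), *Dhcr7* (0.051) and *Tnfrsf11a* (0.053). *Ctsh* had *G2e3* (0.044), *Soat1* (0.051) and *Socs6* (0.053), *Ctsl* had *Tpcn2* (0.061), *Wdr62* (0.076) and *Dnmt3a* (0.081), and *Ctse* had *Pik3r6* (0.058), *Rab43* (0.062) and *Pira2-ps1* (0.064).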

How the data were processed

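Total RNA of 9 mouse lungs was sequenced, and samples were grouped by the treatment in the labels. The authors deposited 1 table of raw read counts and FPKM per gene and mouse. The submitters' processing notes name HISAT2 2.0, StringTie 1.3.0, Bowtie 0.12.2 and mm10, without roles; strand setting, annotation release and the handling of reads that map to several places are not given in the sources used here. The table's coordinates equal those of GENCODE M21 for 620 of 32643 shared gene IDs, so both are kept apart. Reads from overlapping genes could shift counts between them.

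From the counts, edgeR 4.0.16 (R 4.3.3, TMM, quasi-likelihood) was fitted for every comparison on the 6 mice concerned. Genes entered if they averaged 0.5 FPKM or more over the 9 mice and had any read in those 6. SE is the size of the log2 fold change over the square root of F. Libraries of a group varied 24.4 times or more above sampling noise, so no library was a copy. PBS and LM8 mice of the same number deviated together (r = 0.31, 0.32 and 0.67), so a block by number was also fitted for that comparison. In the other group pairs mice of the same number did not (r from -0.42 to 0.28). Some mice of different numbers deviated together as strongly. For PBS mouse 3 with IL-33 mouse 1 r was 0.65, and for IL-33 mouse 1 with LM8 mouse 3 it was 0.67. The number therefore need not mark a true pair. DESeq2 1.42.0, limma 3.58.1 on log2(FPKM + 1) or log2(FPKM + 0.1), other scalings and filters, and leaving out mice were alternatives. Fits were tested on simulated data. Members, gene lists, motifs and the naming rule (all members; per related list the 2 most abundant tested genes and the largest change in IL-33 against PBS; per marker list its leading gene; 3 nearest profiles) were chosen with earlier results of these data known. Promoter sequences are from RefSeq (GRCm38.p6).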

Additional observations from a re-analysis of the deposited data

How the results depend on the processing

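With at least a 2-fold change required besides the adjusted p, 5 of the 10 cathepsins passed as higher in IL-33 against PBS, 3 as lower in IL-33+LM8 against IL-33 and 4 as higher in IL-33+LM8 against PBS. Without that minimum the counts were 10, 9 and 7, and they stayed within 1.5 times of these under every other scaling, filter, test and left-out mouse listed. With it, in a recount chosen after seeing the data, 5 became 4 and 4 became 3 by the loss of *Ctse* with the FPKM filter at 5 and with limma on log2(FPKM + 1), and 3 became 2 by the loss of *Ctsb* without IL-33 mouse 3 or LM8 mouse 1. A filter of a mean FPKM of at least 5 removed *Ctse* by its construction. With the replicate number as a block the counts were 10, 9 and 7 as well, and the block changed no call of a cathepsin; over all genes it moved the higher and lower counts from 4616 and 4577 to 4182 and 4074 for IL-33 against PBS, from 2120 and 2339 to 1573 and 1820 for IL-33+LM8 against IL-33 and from 2741 and 2256 to 3388 and 3034 for IL-33+LM8 against PBS. IL-33 mice share only a number with the other groups, and not every mouse correlated best with its own number. The FPKM filter at 5, which tests 8574 genes, left 2742 higher genes in IL-33 against PBS, 1306 lower in IL-33+LM8 against IL-33 and 1667 higher in IL-33+LM8 against PBS.

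Of 447 recomputed fold changes of single cathepsins, 445 had the same sign and the same call as before. The 2 that changed sign were *Ctsh* in IL-33+LM8 against PBS, at -0.01 with the FPKM filter at 5, which tests fewer genes, and -0.04 to 0.07 over left-out mice. Among related genes near 0, signs changed for *Ctso* (-0.09 to 0.02 in IL-33 against PBS, -0.04 to 0.01 in IL-33+LM8 against IL-33, -0.09 to 0.02 in IL-33+LM8 against PBS), *Napsa* (-0.04 to 0.01 in IL-33 against PBS), *Cst3* (-0.07 to 0.02 in IL-33+LM8 against IL-33) and *Lamp1* (-0.05 to 0.02 in IL-33+LM8 against PBS, and 0.00 with no filter) when mice were left out; the cause was not tested. The depth limits *Ctse* most, since its PBS mice had 67 to 120 reads.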
